A study of Mus musculus with 52 samples.

Results

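Caps2 and Afm are a pair of genes whose mean transcript levels were low in wild-type mouse prostate and far higher in prostate of mice without Tug1. Both were chosen by their knockout over wild-type difference in prostate in these same tables, so that difference is described here and not tested. They are 2 of 39144 genes listed in at least 1 tissue and 2 of 23277 listed in prostate. Caps2 (ENSMUSG00000035694.15) lies on the plus strand of chromosome 10 at chr10:112163621-112216555 (GRCm38), and Afm (ENSMUSG00000029369.17) on the plus strand of chromosome 5 at chr5:90518932-90553543. Both are annotated as protein-coding genes.

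RNA-seq was performed on male mice of the strain Tug1_tm1.1Vlcg, which carry lacZ in place of Tug1 downstream of its first exon (Tug1-/-), and on wild-type males. The solid tissues came from a mixed C57BL/6J/129S6 background (N3-C57BL/6J, no Neo), whereas the knockout testes are given as keeping the Neo (neomycin resistance) cassette. The authors' methods describe removal of this cassette by a Cre cross before the colony was expanded, so this difference is uncertain. The prostate means rest on 3 wild-type and 2 Tug1-/- libraries. Testes have 4 libraries per genotype, and spleen, liver, heart, eyes and cultured embryonic fibroblasts (MEF) have 3. A rescue group of 3 testes carries the knockout together with a doxycycline-induced Tug1 transgene and the CAGs-rtTA3 activator. Ages are not given in the labels. The tables hold 1 mean per genotype and tissue in TPM (transcript abundance scaled for gene length and library size), a level that can be compared between genes. The values below are therefore the authors' means, given without a spread, and no test was run. The authors' own comparison columns, which hold fold changes with standard errors and p-values, were not used here. In the absence of per-library values it cannot be told whether 1 or both Tug1-/- prostate libraries carry a high mean, nor which neighbours in an order of tissues differ beyond their spread. In bulk tissue a change in cell number and a change in RNA per cell cannot be told apart.

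Afm encodes afamin, a secreted glycoprotein of the albumin family that is made mainly by hepatocytes and circulates in plasma. Afamin binds vitamin E and holds lipid-modified Wnt ligands in solution. Its relatives Alb (albumin), Afp (alpha-fetoprotein) and Gc (vitamin D-binding protein) are likewise secreted by liver. Caps2 encodes calcyphosphine 2, an EF-hand protein of the calcyphosine family, and is distinct from Cadps2, a secretion factor sometimes given the same abbreviation. The prostate is a secretory gland that depends on androgen, and its lobes lie beside the seminal vesicles and fat.

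The starts of the members and of the albumin relatives next to Afm are shown first, because the genes nearest to each member had high ratios as well. Sequences are from RefSeq (GRCm38.p6), on the plus strand, and end just before the RefSeq start or before the first GENCODE exon base within the window. Capitals mark GTTAAT or its reverse complement ATTAAC, the half-site bound by the hepatocyte factor HNF1. The Afm window is chr5:90518699-90518931, the Afp window chr5:90490464-90490713, the Alb window chr5:90460620-90460869 and the Caps2 window chr10:112165426-112165669.
Afm: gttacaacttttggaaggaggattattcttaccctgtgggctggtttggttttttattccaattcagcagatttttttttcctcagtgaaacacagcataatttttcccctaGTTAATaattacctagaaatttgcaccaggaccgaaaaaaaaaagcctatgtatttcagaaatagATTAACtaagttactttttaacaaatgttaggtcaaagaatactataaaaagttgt
Afp: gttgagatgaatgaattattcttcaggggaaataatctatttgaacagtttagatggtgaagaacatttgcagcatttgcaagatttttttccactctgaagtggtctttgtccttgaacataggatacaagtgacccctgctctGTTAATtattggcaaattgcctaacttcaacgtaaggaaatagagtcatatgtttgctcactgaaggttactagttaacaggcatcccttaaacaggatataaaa
Alb: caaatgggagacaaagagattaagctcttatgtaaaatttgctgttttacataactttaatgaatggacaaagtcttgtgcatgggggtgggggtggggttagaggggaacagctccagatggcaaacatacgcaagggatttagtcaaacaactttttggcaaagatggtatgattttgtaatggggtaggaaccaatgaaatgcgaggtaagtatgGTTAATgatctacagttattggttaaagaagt
Caps2: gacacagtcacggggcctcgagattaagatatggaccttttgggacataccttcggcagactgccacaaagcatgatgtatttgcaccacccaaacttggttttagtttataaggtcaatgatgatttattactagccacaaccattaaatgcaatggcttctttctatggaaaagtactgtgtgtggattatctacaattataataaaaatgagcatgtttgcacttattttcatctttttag
The HNF1 half-site occurred at 2 places in the Afm window, beginning 138 and 73 bases before the RefSeq start. It occurred once in the Afp window, 105 bases before the start, and once in the Alb window, 32 bases before it. None was in the Caps2 window. Among 32851 RefSeq windows of 250 bases, 6.43% hold these letters on either strand. The letters TATAAA or TTTATA were 30 bases before the Afm start, 7 bases before the Afp start and, in the reverse orientation, 144 bases before the Caps2 start, against 12.4% of all windows. The androgen receptor half-site TGTTCT or AGAACA was in the Afp window alone of these 4, against 16.1% of all windows. The Caps2 window lies in the first intron of the longest GENCODE model, which starts 2055 bases upstream of the RefSeq start. These matches describe the letters of the windows only.

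The tissue and genotype labels were checked by marker genes. Tug1 had a prostate mean of 27.8 TPM in the wild type and 0.0553 TPM in Tug1-/-, in the other tissues at most 2.21% of the wild-type mean was left in Tug1-/-, and the rescue testes stood at 1.60 TPM against 40.1 TPM in the wild type. Prostate secretory genes identified the tissue in both genotypes, with 10 of 11 listed. Probasin (Pbsn) was 65995 TPM in the wild type and 58591 TPM in Tug1-/-, and the transglutaminase Tgm4 was 20666 and 20140 TPM. The median difference of the secretory list was 0.04 on the log2(TPM + 1) scale, and its genes ranged from -0.51 to 0.86. The wild-type prostate mean stood apart from the other tissues in ribosomal and small RNA. The ribosomal RNA feature CT010467.1 was 11824 TPM there, against 389 TPM in Tug1-/- prostate and 270 to 686 TPM in the wild-type and Tug1-/- means of the other tissues. The 5 lowest prostate differences were Rn7sk, the 7SK small nuclear RNA (292 to 1.51 TPM, wild type to Tug1-/-), Gm23935 (12783 to 271), Gm24187 (6845 to 148), Mir6236 (2307 to 58.1) and Gm15564 (216 to 5.77).

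In prostate, the mean Caps2 level was 0.187 TPM in the wild type and 34.7 TPM in Tug1-/-. The mean Afm level was 0.635 TPM in the wild type and 28.6 TPM in Tug1-/-. Both means were thus below 1 TPM in the wild type and well above it in the knockout, where Afm stood at 0.823 times the Caps2 level. The ratio of the means was 185-fold for Caps2 and 45.0-fold for Afm. On the log2(TPM + 1) scale, on which low levels are damped by a pseudocount of 1 TPM, the differences were 4.91 for Caps2 and 4.18 for Afm. Without the pseudocount the same log2 differences were 7.53 and 5.49. By the difference with the pseudocount of 1 TPM, Caps2 and Afm ranked 2 and 5 of the 23277 genes listed in prostate, so 1 and 4 genes had larger differences. With a pseudocount of 0.1 TPM, the ranks were 4 for Caps2 and 18 for Afm. Rescaling each prostate mean to a fixed protein-coding total, an alternative added after the data were seen, gave 4.94 for Caps2 and 4.19 for Afm. Of all genes listed in prostate, 0.829% (193 genes) were at least 2-fold higher in Tug1-/- on this scale and 0.335% (78 genes) at least 2-fold lower. Membership was set on this contrast, and nothing is read from the rank.

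**Figure D1:**
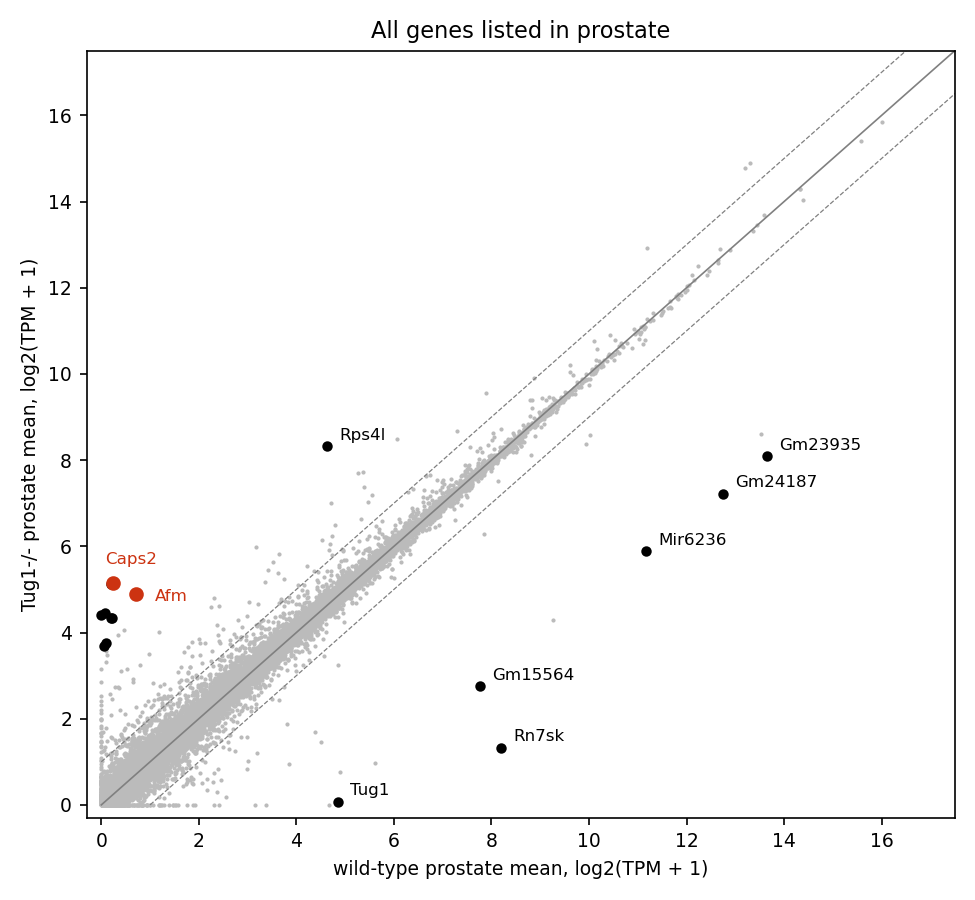
Each point is a gene listed in prostate, with the wild-type mean on the horizontal and the Tug1-/- mean on the vertical axis, both as log2(TPM + 1); the solid line marks equal means and the dashed lines a 2-fold difference. Caps2 and Afm (red) lie at the left edge among the 10 highest differences (black points at the upper left, with Rps4l named), and the 5 lowest differences and Tug1 lie below the line.

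The tables also give a mean DESeq2-normalised read count over the 5 prostate libraries. This was 617 for Caps2 and 462 for Afm. If it is divided between genotypes in proportion to the mean TPM, 99.2% of the Caps2 reads and 96.8% of the Afm reads fall in the 2 Tug1-/- libraries. That corresponds to about 1530 reads per Tug1-/- library and 8.26 per wild-type library for Caps2. For Afm it corresponds to about 1118 and 24.8 reads. This division uses the same prostate means that chose the genes, so it gives the reads behind each mean and is no further support for the difference.

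**Figure D2:**
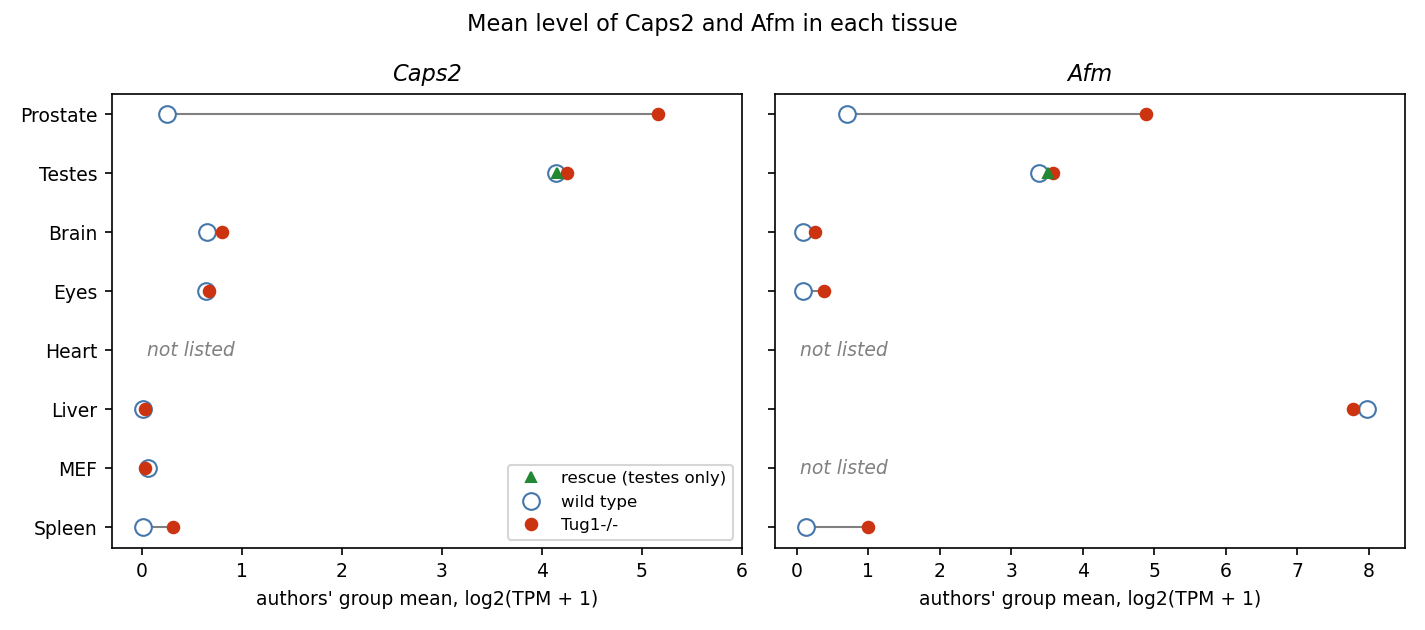
The horizontal axis is the authors' group mean as log2(TPM + 1), and each row is a tissue, with open circles for the wild type, filled circles for Tug1-/- and triangles for the rescue testes; means carry no error bars because no values of single libraries were at hand. The widest gap in each panel is in prostate, at 4.91 for Caps2 and 4.18 for Afm, while the testis symbols lie close together.

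Outside prostate, Caps2 was listed in 6 further tissues and Afm in 5. Caps2 was not listed in heart, and Afm was not listed in heart or MEF, since the authors removed genes with few reads in every replicate. These means did not serve to choose the members. The wild-type order of Caps2 levels was testes (16.7 TPM), brain (0.572), eyes (0.557), prostate (0.187), MEF (0.0396), liver (0.00477) and spleen (0.00348). Testes were the one tissue with a wild-type Caps2 mean above 1 TPM. The knockout prostate mean was 2.08 times the wild-type testis mean, so prostate stood at rank 4 in the wild-type order and at rank 1 in the Tug1-/- order. The wild-type order of Afm was liver (251 TPM), testes (9.45), prostate (0.635), spleen (0.0905), brain (0.0629) and eyes (0.0621). Prostate was at rank 3 in the wild-type order and at rank 2 in the Tug1-/- order, above testes, at 3.02 times the wild-type testis mean and 11.4% of the wild-type liver mean.

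Where the genes were well expressed outside prostate, the genotypes had similar means. Testis Caps2 was 16.7 TPM in the wild type, 18.1 TPM in Tug1-/- and 16.7 TPM in the rescue. Testis Afm was 9.45, 10.9 and 10.5 TPM in the same order. On the log2(TPM + 1) scale the knockout over wild-type differences in testes were 0.11 for Caps2 and 0.19 for Afm, and the rescue over knockout differences -0.10 and -0.06. Liver Afm was 251 TPM in the wild type and 219 TPM in Tug1-/-, a difference of -0.19, from a mean of 12804 normalised reads. Thus the tissues that express either gene in the wild type showed no difference approaching that in prostate.

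The remaining means were below 1 TPM. Caps2 was 0.572 and 0.743 TPM in wild-type and Tug1-/- brain and 0.557 and 0.588 TPM in eyes. It was 0.00477 and 0.0221 TPM in liver and 0.0396 and 0.0225 TPM in MEF, from about 1 normalised read per library. Afm was 0.0629 and 0.189 TPM in brain and 0.0621 and 0.302 TPM in eyes. On the log2(TPM + 1) scale, spleen had the widest gap outside prostate for both genes, with Caps2 at 0.00348 and 0.242 TPM and Afm at 0.0905 and 0.999 TPM. The spleen differences were 0.31 for Caps2 and 0.87 for Afm on this scale, and 6.12 and 3.46 without the pseudocount. Their mean normalised counts over the spleen libraries were 6.48 and 25.5. Beside these spleen values, 6 pancreatic digestive enzyme genes, a list chosen after the values were seen, summed to 71.3 TPM in the wild-type and 6866 TPM in the Tug1-/- mean, and their part in the member values was not tested. With the pseudocount of 1 TPM, no non-prostate comparison put either member 2-fold higher. The plain ratios of these low means were larger, at 69.7 and 4.63 for Caps2 in spleen and liver, and at 11.04, 4.87 and 3.01 for Afm in spleen, eyes and brain. On the scale with the pseudocount, the share of all genes that were 2-fold higher was 0.796% in spleen and 0.391% in MEF, 0.292% in liver and 0.294% in eyes, 0.264% in testes and 0.173% in brain, and 0.128% in heart. Between rescue and Tug1-/- testes, 0.559% of genes differed at least 2-fold in either direction, and neither member did.

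The genes next to each member were then examined. Within 0.5 Mb of the Caps2 start, 5 other genes were listed in prostate. One of them, Glipr1l3, a member of the GLIPR1-like family of CAP-domain proteins, was 0.171 TPM in the wild type and 19.2 TPM in Tug1-/-. Its difference of 4.11 on the log2(TPM + 1) scale was the seventh highest in prostate. Glipr1l3 is at chr10:112141754-112160327 on the minus strand, and diverges from Caps2 across a gap of 3293 bases with no shared exon. It was listed in 1 other tissue, testes, at 54.6 TPM in the wild type, 57.6 TPM in Tug1-/- and 54.4 TPM in the rescue. Testes were thus the tissue with the highest wild-type mean for both Caps2 and its nearest neighbour. The other 4 genes had differences from 0.01 to 0.40. They were Krr1, a ribosome biogenesis factor (15.4 and 17.49 TPM), Glipr1 (2.28 and 3.34 TPM), Gm7269 (0.130 and 0.189 TPM) and the potassium channel gene Kcnc2 (0.0325 and 0.0411 TPM).

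Around Afm, 15 other genes were listed in prostate within 0.5 Mb, and 2 of them were at least 2-fold higher in Tug1-/-. Gm43449, a transcript on the minus strand at chr5:90499088-90515931, was 0.0691 TPM in the wild type and 10.9 TPM in Tug1-/-, a difference of 3.48. It has 371 exonic bases and a mean of 21.1 normalised reads, so its level rests on fewer reads than that of Afm. A gap of 3000 bases separates its start from that of Afm, and it runs the opposite way over part of Afp, sharing no exonic base with Afp or Afm. The strand setting of the read counting is not given in the sources used here, so intronic Afp reads and Gm43449 reads may not be separable. Afp, at chr5:90490737-90508907, was 0.0316 TPM in the wild type and 2.21 TPM in Tug1-/-, a difference of 1.64. Alb, the next gene upstream, was 0.148 and 0.535 TPM, a difference of 0.42. Downstream, Gm42109 and Gm2602 were listed at 0 in the wild type and at 0.562 and 0.377 TPM in Tug1-/-. The chemokine gene Pf4, 254 kb downstream, was 11.8 and 19.7 TPM, a difference of 0.70. The other 9 neighbours (Eif5al3-ps, Cox18, Ankrd17, Gm9958, Rassf6, Ppbp, Cxcl15, Cxcl1 and Mthfd2l) had differences from -0.16 to 0.22. The percentage of all prostate genes past the same limit, 0.829%, is the background for both counts of neighbours. In any tissue, 14 other genes were listed in the Caps2 window and 21 in the Afm window. Dividing reads by mean TPM as above gives wild-type prostate means of 1.96 for Glipr1l3, 1.37 for Afp and 0.33 for Gm43449. These genes may thus be listed in prostate through Tug1-/- reads alone, and the counts of neighbours are given as a description.

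**Figure D3:**
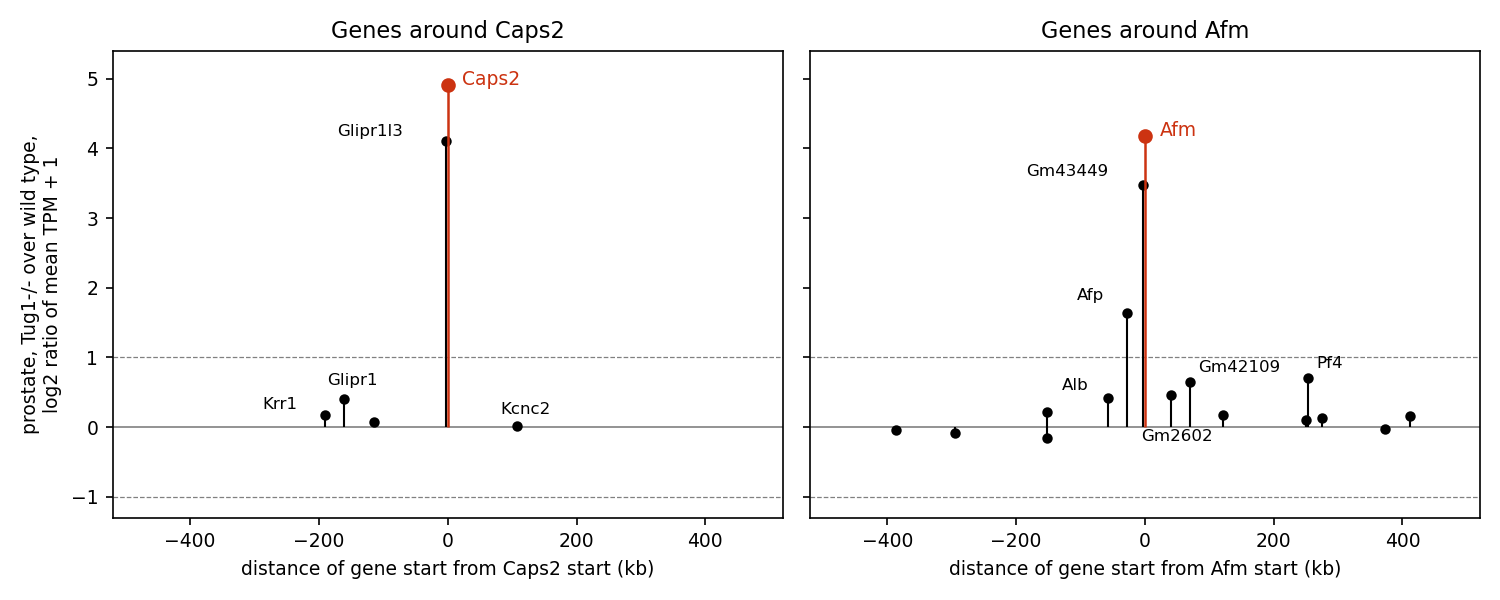
The horizontal axis is the distance in kb of a gene's start from the start of Caps2 (left) or Afm (right), and the vertical axis the prostate Tug1-/- over wild-type difference on the log2(TPM + 1) scale; dashed lines mark a 2-fold difference. Beside Caps2, Glipr1l3 reaches 4.11, and beside Afm, Gm43449 and Afp reach 3.48 and 1.64, whereas the other neighbours lie between -0.16 and 0.70.

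The neighbours of Afm did not show this pattern in liver, where Afm is most abundant. In liver, Afp was 1.70 TPM in the wild type and 1.38 TPM in Tug1-/-, Gm43449 was 3.90 and 2.25 TPM, and Alb was 97035 and 102474 TPM. Alb was thus far above Afm in liver and below it in prostate and testes of both genotypes. In testes Afp was 0.680 and 0.741 TPM, and Alb 0.0973 and 0.0904 TPM. Gc, the remaining gene of the albumin family, was not listed in prostate, and in testes it was 4.52 TPM in the wild type and 0.0313 TPM in Tug1-/-. In spleen, where Afm was higher in Tug1-/-, Alb was 16.4 and 0.0843 TPM, Gc 1.61 and 0.0440 TPM and Afp 4.95 and 2.82 TPM, all lower in Tug1-/-. The family thus had no common direction over the tissues.

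The other hepatocyte plasma protein genes were examined as a list of 20, of which 10 were listed in prostate. The 2-fold limit on the log2(TPM + 1) scale was passed by 1 of these 10, against 0.829% of all prostate genes, and the median difference was 0.17, against 0.03 over the 15547 prostate genes at 1 TPM or more. This share is the background for the counts of all lists below, and with lists of this size a count of 0 is no result about the list. Haptoglobin (Hp), which is also made by fat, was 9.24 TPM in the wild type and 35.2 TPM in Tug1-/-. The next highest difference was 0.77 for transferrin (Trf), at 1.52 and 3.29 TPM. Among genes below 1 TPM the plain ratio was 21.7 for Serpina3k (0.0121 and 0.262 TPM) and 3.61 for Alb, and Serpina1b was listed at 0 and 0.0995 TPM. Apoa2, an apolipoprotein, was 8.16 and 9.48 TPM. Transthyretin (Ttr), Apoa1 and the 3 fibrinogen genes Fga, Fgb and Fgg were not listed. Of 5 defining hepatocyte markers, Alb and Ahsg were listed, and summed to 0.304 TPM in the wild type and 0.728 TPM in Tug1-/-, where Afm was 28.6 TPM.

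Afamin binds Wnt ligands and vitamin E, and the genes of both were examined. Of 19 Wnt ligand genes, 13 were listed, none differed 2-fold, and the median difference was 0.01. The 4 most abundant were Wnt7b (19.3 and 20.2 TPM), Wnt2 (11.9 and 13.3 TPM), Wnt4 (5.46 and 7.87 TPM, the highest difference of the list at 0.46) and Wnt5a (6.03 and 6.10 TPM). All 10 genes for Wnt secretion and response were listed, none differed 2-fold, and the median was -0.03. Axin2 and Nkd1, which are induced by canonical Wnt signalling, were 37.6 and 33.9 TPM and 90.9 and 87.4 TPM. Among 10 vitamin E and lipoprotein genes, 2 were at least 2-fold higher, and the median difference was 0.26. These were the fatty acid transporter Cd36 (11.95 and 26.5 TPM) and lipoprotein lipase (Lpl, 11.9 and 25.4 TPM), both abundant in fat. The alpha-tocopherol carriers Sec14l2 (34.7 and 31.1 TPM) and Ttpa (0.293 and 0.282 TPM) were near equal.

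The relatives of Caps2 were examined as a list. Of 16 EF-hand genes, 13 were listed, none differed 2-fold on the log2(TPM + 1) scale, and the median difference was -0.03. Efcab6, at 0.00787 and 0.0427 TPM, had a plain ratio of 5.42. Capsl, the calcyphosine-like gene, was 4.53 TPM in the wild type and 3.58 TPM in Tug1-/-. Efhd2 and Cetn2, the most abundant, were 75.0 and 73.45 TPM and 50.8 and 52.3 TPM. Of the 17 genes of motile cilia, 16 were listed, and none differed 2-fold on the log2(TPM + 1) scale. Most of these were below 1 TPM, where the pseudocount leaves little room to pass the limit. By plain ratio, Dnah9 (2.33) and Hydin (2.20) were higher and Spag6l (0.473) lower, all under 0.1 TPM in both genotypes. The ciliary transcription factor Foxj1 was 0.0986 and 0.117 TPM. Of 5 germ cell genes 1 was listed, the protamine gene Prm1, at 0.280 and 0.293 TPM, and Prm2, Tnp1, Tnp2 and Odf1 were not listed. Among the 10 epididymis and vas genes 4 were listed, with a median difference of -0.02.

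Of 10 androgen response genes, 0 passed the 2-fold limit in either direction, and the median difference was 0.21. The highest were Fkbp5, a chaperone gene induced by androgen and glucocorticoid (20.4 and 36.4 TPM), Tsc22d3 (31.2 and 50.2 TPM) and Zbtb16 (17.7 and 26.9 TPM). Tmprss2, an androgen-induced serine protease gene, was 603 and 557 TPM.

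Markers of other cell types were set beside the member values, since prostate dissection can take up adjoining tissue. All 4 adipocyte genes were at least 2-fold higher in Tug1-/- prostate, with a median of 1.89 and a summed level of 35.2 TPM in the wild type and 149 TPM in Tug1-/-. Adiponectin (Adipoq) was 9.65 and 42.7 TPM, the lipid droplet gene Cidec 11.5 and 55.5 TPM, the fatty acid-binding gene Fabp4 11.4 and 40.4 TPM, and perilipin (Plin1) 2.66 and 9.89 TPM. Of 8 seminal vesicle genes 3 were 2-fold higher, Svs2 (10039 and 30715 TPM), Svs5 (9363 and 27896 TPM) and Pate4 (2346 and 7743 TPM), while the median was 0.04. Svs4 was 454 and 674 TPM. The other 4, Svs1, Svs3a, Svs3b and Svs6, were lower in Tug1-/-, at 0.689 to 0.705 times the wild-type mean. The 9 macrophage genes had a median of 0.61, and 1 of them, Mrc1, passed the limit (6.41 and 16.4 TPM). The T and B cell list had a median of 0.05 and a summed level of 3.62 and 4.31 TPM. No gene of the remaining lists passed it, and their medians were -0.05 for basal cells, -0.12 for luminal keratins, -0.04 for urothelium, 0.08 for smooth muscle, 0.25 for endothelium and 0.03 for skeletal muscle. The ratio of summed levels was 4.22 for the adipocyte list and 3.01 for the seminal vesicle list. Svs2, Svs5 and Pate4 make up most of the seminal vesicle sum. Fat and seminal vesicle are not among the tissues measured, so the levels of Caps2 and Afm there are unknown. Whether such tissue took part in the member values was not tested.

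**Figure D4:**
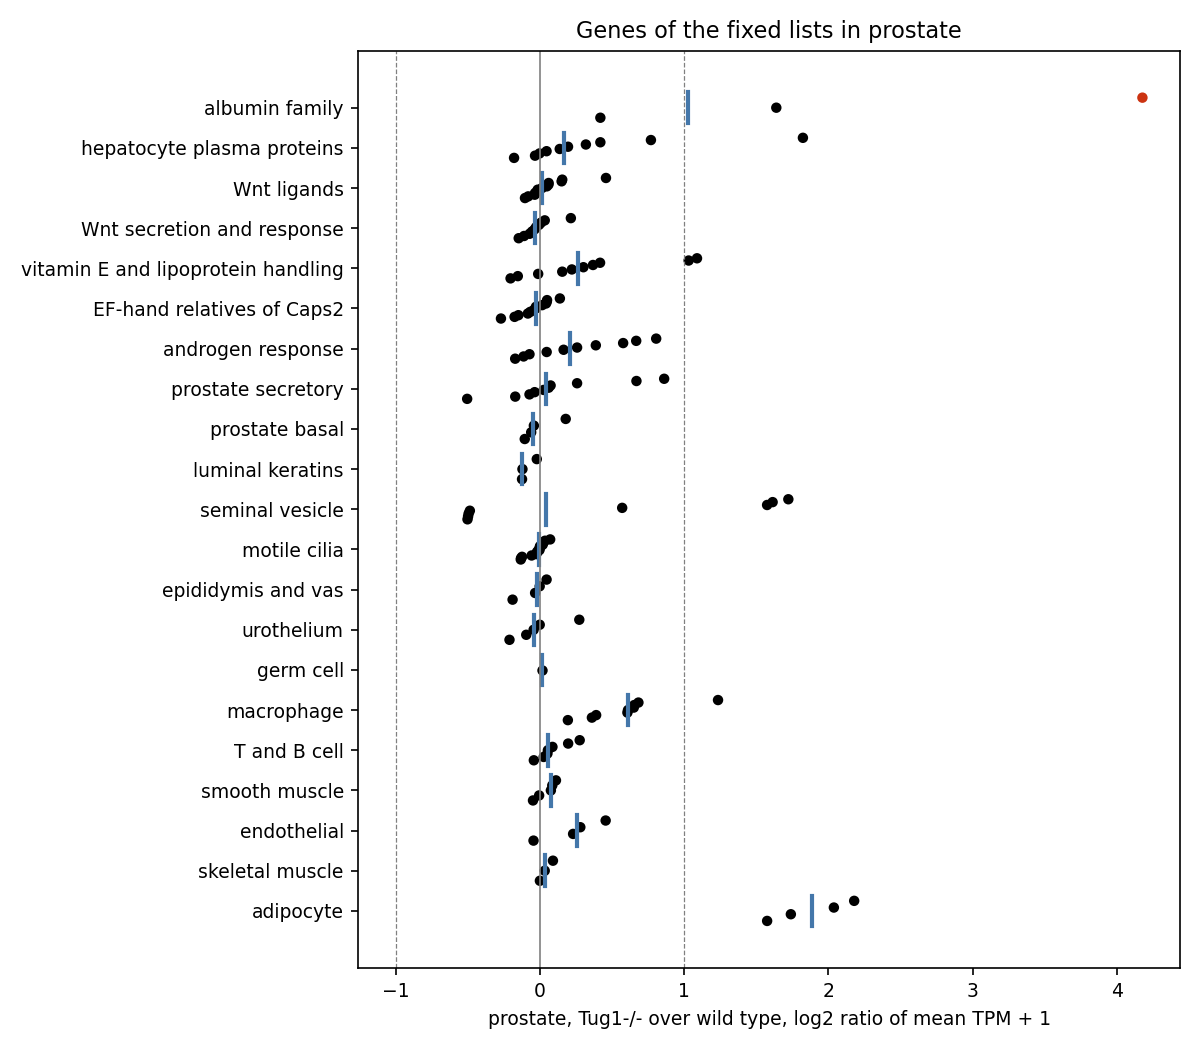
Each point is a gene of a list, placed on the horizontal axis by its prostate Tug1-/- over wild-type difference on the log2(TPM + 1) scale, with bars at the list medians without members and dashed lines at a 2-fold difference. Afm (red) lies at 4.18, beyond every other gene shown, and the adipocyte list has the highest median at 1.89.

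Profiles over tissues were then compared by Pearson's correlation of log2(TPM + 1) over the group means of both genotypes, as a description of means that share libraries and normalisation. Over the 14 means of the tissues that list Caps2, the nearest gene was Lrrd1, a leucine-rich repeat and death domain gene (r = 0.93). Lrrd1 was 52.1 TPM in wild-type testes, and in prostate 3.72 TPM in the wild type and 23.3 TPM in Tug1-/-, a difference of 2.36. The next were Fndc3a (0.84), the sperm calcium channel gene Catsperd (0.84), Ppp1r36 (0.83) and 4930415O20Rik (0.83), which were high in testes and had prostate differences between -0.17 and 0.12. By Spearman's correlation none of the 5 stayed among the nearest, and without brain 1 did, Lrrd1. Without the Tug1-/- prostate mean none of these 5 stayed among the nearest, which were then Ccdc183, Gm26706, Best1, Ccdc40 and 4932702P03Rik, each with r of 0.996 or 0.997. The Caps2 profile outside Tug1-/- prostate was thus that of a testis-high gene.

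Over its 12 means, Afm was nearest to Pkhd1, the gene for the ciliary protein fibrocystin (r = 0.97), then to AC160930.2 (0.95), the complement gene C8g (0.93), the mitochondrial chaperone gene Trap1 (0.92) and Pemt (0.92), an enzyme of phosphatidylcholine synthesis. Pkhd1 was 2.15 TPM in wild-type liver, and in prostate 0.316 and 0.858 TPM. Without the Tug1-/- prostate mean, 3 of the 5 stayed (C8g, Pemt and Trap1), joined by Vwce and Apoh. By Spearman's correlation 1 of the 5 stayed, AC160930.2, and without brain 3 did. Caps2 ranked 1294 of 16983 genes by likeness to Afm (r = 0.21), and 1923 without the Tug1-/- prostate mean (r = 0.07).

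The 10 highest prostate differences, at 1 TPM or more in either genotype, included both members and Glipr1l3. Immunoglobulin variable segments made up 3 of the 10. These were Igkv6-23 (0.146 and 33.8 TPM), Ighv5-6 (0.152 and 19.1 TPM) and Igkv3-2 (0.0679 and 12.5 TPM), which may share reads with near-identical segments and are uncertain. The others were the kallikrein gene Klk1b22 (listed at 0 and 20.1 TPM), the noncoding RNA 4930453H23Rik (0.0587 and 20.8 TPM), the ribosomal protein S4-like gene Rps4l (23.6 and 319 TPM) and Gm5538 (0.0419 and 11.9 TPM). Klk1b22 and Rps4l, a processed copy, also have close relatives in the genome, and their counts are uncertain in the same way. By wild-type means, 6 of the 10 were most abundant in testes, 3 in spleen and 1, Afm, in liver. Of the 15547 prostate genes at 1 TPM or more, 15.4% had their highest wild-type mean in testes, 16.7% in spleen and 4.25% in liver. The 10 were picked by their prostate difference, and these shares are given as a description. The testes group held Caps2, Glipr1l3, 4930453H23Rik, Gm5538, Rps4l and Klk1b22.

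**Figure D5:**
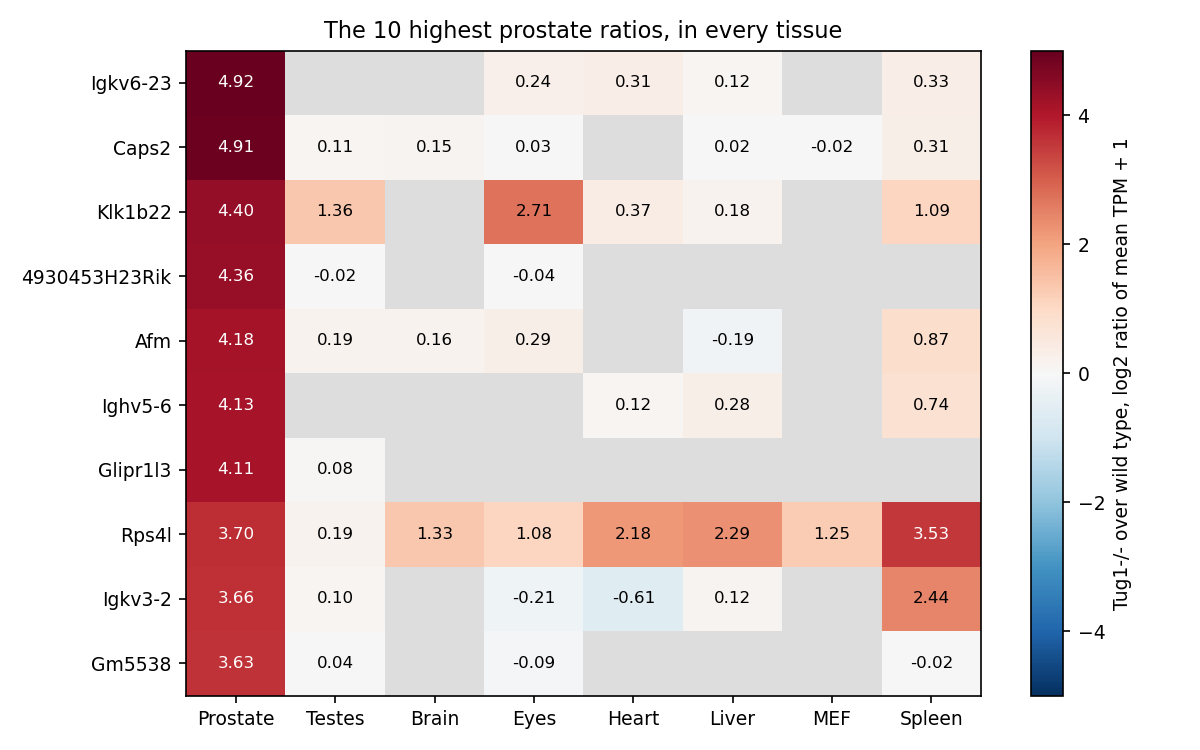
Rows are the 10 genes with the highest prostate differences and columns the tissues; colour and number give the Tug1-/- over wild-type difference on the log2(TPM + 1) scale, and grey marks genes not listed. Caps2 and Afm stand at 4.91 and 4.18 in prostate and between -0.19 and 0.87 elsewhere, whereas Rps4l exceeds 1 in 7 of the 8 tissues.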

How the data were processed

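Total RNA of the tissues was sequenced as polyA-selected libraries. The authors demultiplexed reads with CASAVA 1.8.2, aligned them to GRCm38 with STAR, counted uniquely mapped reads per GENCODE vM16 gene with featureCounts, removed genes with low counts in every replicate, and normalised with DESeq2. The deposited tables hold the authors' mean TPM per genotype and tissue (testes in a table of its own) and, outside testes, the mean normalised count over both genotypes, a signal per gene. They hold no values of single libraries, so depth per library is unknown, libraries could not be compared with each other, and no test was run here; TPM was scaled within each library by the authors. The columns of the authors' own comparisons (fold changes, standard errors, p-values) were not used. The brain means come from libraries outside the samples described here, and 6 F1 hybrid testis samples of 52 in the series were not analysed here.

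Differences are log2((Tug1-/- + 1)/(wild type + 1)) of mean TPM, and a gene was counted as higher or lower at 2-fold or more. Testes were compared only within their own table, and levels set across the tables rest on separate normalisations. Genes named are the members, Tug1, genes starting within 0.5 Mb of a member, the genes of fixed lists at 2-fold or more and their most abundant genes, the 10 highest and 5 lowest prostate differences at 1 TPM or more, and the 5 genes most like each member over the tissues. The values of 1 list gene are not reported here. A few further list genes and CT010467.1 were chosen after their values were seen. The members and lists were chosen with earlier results of these data known. Promoter sequences were copied from RefSeq, and exons from GENCODE vM21 (GRCm38), in which the 6 genes looked up had the same coordinates as in the tables. The ratio and correlation steps were tested on simulated data. Python 3.11.15, numpy 2.4.6, pandas 2.3.3 and matplotlib 3.10.9 were used. Alternatives were other pseudocounts, centring on the median gene, a 1 TPM filter, a 1.5-fold limit, a wider window of neighbours, Spearman's correlation and, added after the data were seen, rescaling to the protein-coding total.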

Additional observations from a re-analysis of the deposited data

How the results depend on the processing

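Both prostate differences kept their direction and stayed past the 2-fold limit under every alternative run. Their size depended on the pseudocount. For Caps2 the log2 difference was 5.68 with a pseudocount of 0.5 TPM, 6.92 with 0.1 TPM and 7.53 with none, and for Afm 5.29 with 0.1 TPM and 5.49 with none. The number of prostate genes higher in Tug1-/- was 553 at a 1.5-fold limit and 705 with a pseudocount of 0.1 TPM, against 193. Centring on the median gene gave 4.88 and 4.15. Of 109 alternative values for 27 results, 70 stayed within a factor of 1.5 of the reported value, taken for a log2 difference as a factor of the fold it stands for, 39 moved further and none changed sign among those past the limit. The genes most like each member depended on the setting. Of the 5 for Caps2, 0 were kept by Spearman's correlation, 0 without the Tug1-/- prostate mean and 1 without brain, and of the 5 for Afm 1, 3 and 3. Outside prostate, the spleen Afm difference passed the 2-fold limit with pseudocounts of 0.5 TPM (1.34) and 0.1 TPM (2.53), and the eye Afm difference with 0.1 TPM (1.31). Caps2 in spleen passed it with 0.1 TPM (1.73). With no pseudocount, Afm also passed it in brain (1.59), eyes (2.28) and spleen (3.46), and Caps2 in liver (2.21) and spleen (6.12). All these rest on wild-type means under 0.1 TPM, a level at which the tables cannot tell a few reads from none. Widening the window around each member to 1 Mb added no neighbour past the limit. No paired analysis was possible because the tables hold group means, and for the same reason no library could be left out in turn.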

Other observations

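Some genes that shared the high prostate difference were also higher in Tug1-/- elsewhere. Caps2 and Afm had similar means in both genotypes in testes, and Afm also in liver. In spleen, Caps2 was 0.00348 TPM in the wild type and 0.242 TPM in Tug1-/-, and Afm 0.0905 and 0.999 TPM. Rps4l in spleen was 15.2 TPM in the wild type and 187 TPM in Tug1-/-, 21.4 and 108 TPM in liver, and 26.1 and 122 TPM in heart, but 183 and 208 TPM in testes. Klk1b22, a kallikrein gene, was 3.79 TPM in wild-type testes, 11.3 TPM in Tug1-/- testes and 0.547 TPM in rescue testes, and in eyes it was listed at 0 in the wild type and at 5.54 TPM in Tug1-/-. By contrast 4930453H23Rik was 23.3 TPM in wild-type, 22.9 TPM in Tug1-/- and 22.7 TPM in rescue testes, and Gm5538 was 7.83, 8.07 and 7.497 TPM. These are means without replicate values, and the differences were not tested.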
